A study of Mus musculus with 2 samples.

Results

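The genes of the DNA replication machinery were examined in donor T cells sorted from the spleens of mice after allogeneic hematopoietic cell transplantation. The set holds 43 genes, chosen by name from the 32285 genes listed in the count tables, and each of the 43 matched 1 row in both tables. The rule is a list of names and holds no threshold on a measured value. Lethally irradiated BALB/c (H-2d) recipients had been given T cell-depleted bone marrow and spleen-derived T cells, the donors being WT C57BL/6 (H-2b), a fully mismatched model of acute graft-versus-host disease. Recipients of both groups carried the same genotype and the library names of both carry the word PBS. Donor T cells, gated as CD45+, H2Kb+, H2Kd- and TCRβ+, were sorted from pooled spleens at day +7 in one group and day +14 in the other, and 1 library was made per time point on the 10x Genomics system. The protocol text describes a sort on day +7 for both libraries, so the day of each was taken from its title. Pooling leaves no values for single mice, so no test was made, and each interval in brackets is an exact 95% interval that covers counting error only and not the spread between mice.

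Chromosomal DNA is copied once per cell division. The origin recognition complex, with Cdc6 and Cdt1, loads the ring of Mcm2 to Mcm7 onto origins before S phase, and geminin (Gmnn) holds Cdt1 in check afterwards. Cdc45 and the GINS complex turn the ring into the active helicase, primase and DNA polymerases copy the strands, replication factor C loads the Pcna clamp, and Rpa1 to Rpa3 cover the exposed single strands. Many of these genes are transcribed under E2F factors as cells pass from G1 into S phase, ahead of the mitotic genes, and T cells that meet alloantigen are known for rapid division.

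The tables hold 7355 barcodes at day +7 and 8043 at day +14. Barcodes with 500 to 7500 genes and at most 15% mitochondrial unique molecular identifiers (UMIs, the tags that count captured RNA molecules) were kept, which left 7179 and 7794 cells with 86745047 and 83808218 UMIs. The libraries share 17 kept barcodes. Cells were gated on transcripts. The CD8 gate held 5602 cells at day +7 and 5770 at day +14, the CD4 gate 458 and 697, and the Foxp3+ gate 20 and 14. An erythroid gate, which the TCRβ+ sort should have removed, held 131 and 20 cells, and a neutrophil gate, used as a background, held 30 and 49. Genes of the T cell receptor complex stood at 5965 and 7633 CPM (UMIs scaled to the total of the gate) in the CD8 gate, at 1578 and 1670 CPM in the erythroid gate, and at 2027 and 2435 CPM in the neutrophil gate, so the last 2 gates also carried T cell transcripts. Macrophage genes amounted to 29.2 and 20.2 CPM in the CD8 gate and B cell genes to 22.4 and 3.20 CPM. Hemoglobin genes amounted to 1.06 CPM in the CD4 gate at day +7 and 186 CPM at day +14, and 890 of the 938 UMIs of the latter lay in 1 cell. Median depth was 9426 and 8824 UMIs in the CD8 gate, 8260 and 5355 in the CD4 gate and 36729 and 4638 in the erythroid gate.

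Promoter sequences are shown first, because E2F factors are the textbook regulators of these genes and the gene set is followed below as a unit. RefSeq windows on GRCm38.p6, the same build as the mm10 of the deposited data, run from 250 bases before to 50 bases after a gene's start, and 35 of the 43 genes had one. The letters TTTCCCGC, TTTGGCGC, TTTCGCGC and TTTGCCGC, forms of the E2F motif that can overlap each other, were searched on both strands. At least 1 form lay in a window of 16 of the 35 genes, against 704 of the 27025 genes in the whole table (2.60%). The form TTTGCCGC was in none of the windows of the 43 genes. In the first listed window of each gene, a form of the motif was present for 14 of 35 replication genes (40.0%), for 7 of 35 other replication genes, for 0 of 23 mitotic genes and for 2.32% of all genes. CHR, written TTTGAA, went the other way and was in the first window of 4 of 35 replication genes (11.4%), 16 of 23 mitotic genes (69.6%) and 18.1% of all genes. CCAAT was in 24 of 35 (68.6%), 16 of 23 (69.6%) and 37.9%. These are matches of letters, not shown binding sites, and median GC content was 60.0% in the replication gene windows and 52.7% in all windows.

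The motif and 8 bases on each side are printed for members of the licensing, ring, polymerase and loader groups, read along the strand that carries the motif, with the motif in capitals. They lie at chr4:108579419-108579442 (- strand, Orc1), chr8:122568039-122568062 (+, Cdt1), chr1:20820278-20820301 (+, Mcm3), chr8:75109348-75109371 (+, Mcm5), chr5:138172033-138172056 (+, Mcm7), chr12:69228165-69228188 (+, Pole2), chrX:93632278-93632301 (+, Pola1) and chr5:151651203-151651226 (- strand, Rfc3). The Mcm5 stretch also holds TTTGGCGC on the other strand, from -149, which overlaps the motif in capitals and is partly in lower case.
Orc1: agaaaactTTTCGCGCcactaacc
Cdt1: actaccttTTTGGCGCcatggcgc
Mcm3: tcccaagtTTTCCCGCcacggaag
Mcm5: ccaagaacTTTCGCGCcaaaacgt
Mcm7: acaccctgTTTCCCGCggttcgaa
Pole2: gttcgcgaTTTGGCGCcaccgccg
Pola1: ggagtgcaTTTGGCGCcctgtgat
Rfc3: tcgcacgcTTTCGCGCtcgcggga

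Whole windows are printed for 4 genes, along the gene's strand and with E2F motifs in capitals. Cdc6 and Uhrf1 come first by symbol in the licensing and the nucleotide and chromatin groups among genes with a motif, and Mcm6 and Mcm2 were chosen after their values were seen, as the pair with the highest ratios. The windows are chr11:98907901-98908200 (+ strand, Cdc6), chr17:56304063-56304362 (+, Uhrf1), chr1:128359656-128359955 (- strand, Mcm6) and chr6:88898731-88899030 (- strand, Mcm2). Motifs of Mcm6 begin at -110, -106 and -47 from the start, and the first pair overlap. Mcm2 has none of these letters.
Cdc6: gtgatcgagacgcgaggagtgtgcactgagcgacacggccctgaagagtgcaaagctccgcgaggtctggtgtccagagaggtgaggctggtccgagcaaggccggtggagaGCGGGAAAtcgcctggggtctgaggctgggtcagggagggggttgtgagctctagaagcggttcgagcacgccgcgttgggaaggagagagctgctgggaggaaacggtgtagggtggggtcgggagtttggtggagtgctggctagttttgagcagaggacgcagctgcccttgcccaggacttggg
Uhrf1: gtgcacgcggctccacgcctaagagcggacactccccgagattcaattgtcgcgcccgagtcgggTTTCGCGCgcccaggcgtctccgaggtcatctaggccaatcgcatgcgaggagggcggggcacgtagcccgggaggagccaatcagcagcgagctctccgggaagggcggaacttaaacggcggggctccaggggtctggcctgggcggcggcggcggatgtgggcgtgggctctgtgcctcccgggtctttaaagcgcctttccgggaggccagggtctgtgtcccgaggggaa
Mcm6: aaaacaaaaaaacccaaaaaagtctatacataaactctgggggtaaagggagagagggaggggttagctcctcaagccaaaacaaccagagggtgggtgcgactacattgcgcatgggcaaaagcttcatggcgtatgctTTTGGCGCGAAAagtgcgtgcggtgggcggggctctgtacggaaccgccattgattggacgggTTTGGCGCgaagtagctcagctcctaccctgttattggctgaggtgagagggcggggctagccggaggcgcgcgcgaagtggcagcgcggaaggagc
Mcm2: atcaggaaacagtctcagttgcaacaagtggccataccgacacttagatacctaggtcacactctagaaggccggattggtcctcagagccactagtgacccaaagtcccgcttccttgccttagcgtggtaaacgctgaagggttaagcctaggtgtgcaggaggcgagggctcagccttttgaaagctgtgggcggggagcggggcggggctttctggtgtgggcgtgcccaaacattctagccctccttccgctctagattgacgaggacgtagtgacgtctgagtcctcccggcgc

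In the CD8 gate, the 43 genes together gave 3613 CPM [3598, 3627] in the earlier and 4434 CPM [4417, 4450] in the later library, which is 0.30 [0.29, 0.30] as a log2 ratio of day +14 over day +7. Intervals are of the UMI ratio, without the 1 CPM that the ratios of single genes carry, so a ratio need not be centered in its interval. The median log2 ratio of all 6837 genes tested in this gate (mean of at least 10 CPM, 1 CPM added to each value) was 0.18, so the replication genes lay 0.11 above that shift. In the CD4 gate they stood at 3045 CPM [2995, 3095] and 3292 CPM [3242, 3342], with a ratio of 0.11 [0.08, 0.14] against a shift of 0.16 for all genes there. In all kept cells the sums were 3541 and 4258 CPM (0.27 [0.26, 0.27]). The 26 mitotic genes of the same cells summed to 2972 and 3135 CPM in the CD8 gate (0.08 [0.07, 0.09]), with a median ratio over genes of 0.18, and stood at 2484 and 2375 CPM in the CD4 gate (-0.06 [-0.10, -0.03]). Of the 26 CD8 ratios 21 were above 0, and the 5 below 0 were those of Birc5 (-0.26), Knstrn (-0.24), Ccnb2 (-0.10), Ube2c (-0.04) and Hmmr (-0.03). The 67 replication-dependent histone genes, which supply the histones for new chromatin, went from 7793 to 3628 CPM in the CD8 gate (-1.10 [-1.11, -1.10]) and from 6957 to 2682 CPM in the CD4 gate (-1.38 [-1.40, -1.35]). In the CD8 gate replication genes and histone genes thus moved in opposite directions between the same libraries. In the CD4 gate the replication genes lay below the shift of all genes, so no rise of their own is read there. Histone genes were also lower at day +14 in the neutrophil gate, the background, at 4514 and 550 CPM. Their fall is therefore not particular to the T cell gates, and its cause was not tested. More cells in S phase and more transcript per cell cannot be told apart in a summed level, nor within the ranges of mitotic UMIs below. Scaling by the median ratio of abundant genes lowered the CD8 value to 0.08 and the CD4 value to 0.02.

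**Figure D1:**
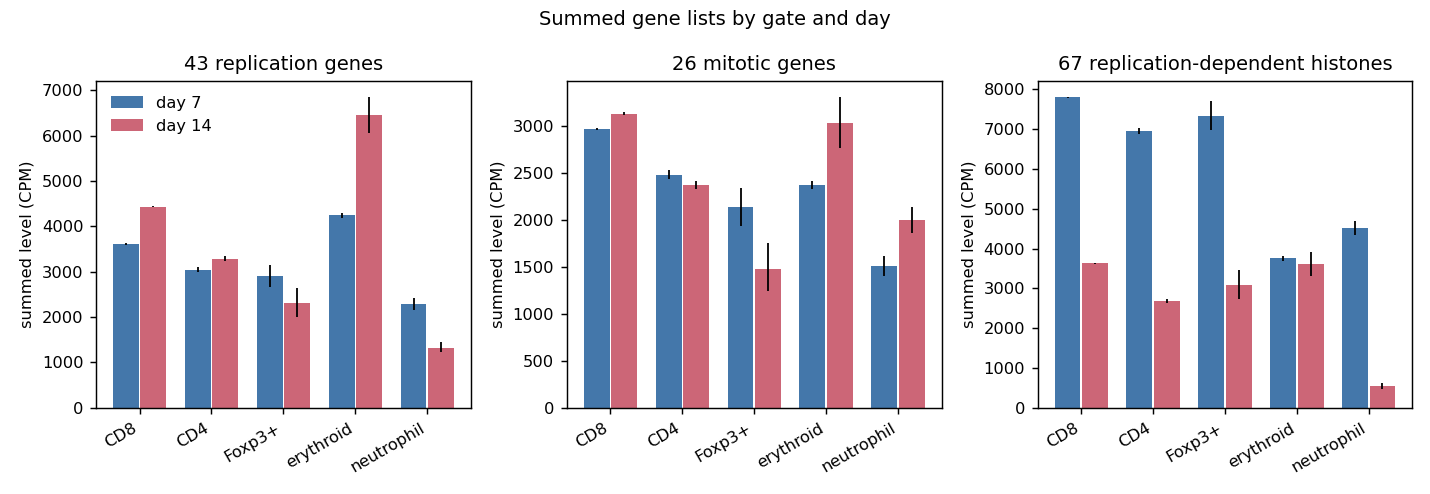
Summed level in CPM (vertical axis) of the replication, mitotic and histone genes in each gate at day +7 and day +14, 1 library each. Bars start at 0, and black lines are exact 95% Poisson intervals for counting error only. Histone levels are lower at day +14 in the T cell and neutrophil gates, while replication gene levels are higher in the CD8 gate.

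A gene was counted as higher or lower where its ratio reached 1.5-fold on the log2(CPM + 1) scale and the counting interval of its UMI ratio lay on the same side of 0. In the CD8 gate 42 of the 43 genes passed the 10 CPM filter, with Orc1 below it at 5.40 and 6.99 CPM. Mcm2 and Mcm6 (4.76%) were higher by this rule and none were lower, where 8.32% of all genes tested were higher and 2.84% lower. The share of members is below that of all genes, so nothing is read from the count. This count changed with the setting. It was 7 of 41 with every cell thinned to 4000 UMIs, 5 of 41 with per-cell means and 0 of 42 under median-ratio scaling. The shares of 8.32% and 2.84% were taken without these changes, so these counts are not set against all genes. Without these changes all 42 ratios were above 0, as were 73.8% of all ratios, and 35 of the 42 were above the median of all genes. The median of the 42 was 0.29. Among CD4 cells 41 genes passed the filter, none were higher or lower by the rule, where the shares of all genes were 14.2% and 2.77%, and 25 of 41 ratios were above 0, as were 68.2% of the ratios of all genes. With thinned cells 3 of 40 were higher, and with per-cell means, no low filter or totals without ribosomal genes 1 was lower. The 14.2% and 2.77% were taken without these changes, so these counts too are not set against all genes. The rule is a threshold on size and not a test, and no P value stands behind these counts. In all kept cells, where the shares were 8.45% and 2.67%, Mcm2 and Mcm6 (4.76%) were the members past the threshold. The CD8 gate made up 78.0% and 74.0% of those cells, so this is not a separate result.

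Among the licensing genes, the CD8 group sums were 298 and 340 CPM (0.19 [0.16, 0.22]), at the shift of all genes. Cdc6, which recruits the ring to origins, had the highest ratio of the 4 genes that passed the filter, at 20.9 CPM [19.8, 22.01] and 25.4 CPM [24.2, 26.6] (0.27 [0.18, 0.38]). Orc6, a subunit of the origin recognition complex, had the lowest at 81.1 CPM [79.0, 83.3] and 90.9 CPM [88.6, 93.3] (0.16 [0.11, 0.22]). Their intervals overlap. Cdt1 and Gmnn, the loader and its inhibitor, stood side by side at ratios of 0.18 and 0.18. The same group in CD4 cells went from 252 to 231 CPM (-0.13 [-0.25, -0.01]), with Cdt1 at 27.0 and 21.2 CPM.

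The 6 ring subunits had the highest group ratio in the CD8 gate, at 615 CPM and 862 CPM (0.49 [0.47, 0.51]). Mcm6 went from 136 CPM [134, 139] to 229 CPM [225, 232] (0.74 [0.71, 0.78]), higher than 95.8% of all genes tested. Mcm2 stood at 42.4 CPM [40.9, 44.0] and 67.7 CPM [65.7, 69.7] (0.66 [0.61, 0.74]). Both are subunits of the same heterohexamer as Mcm4, which had the lowest ratio of the group at 72.1 CPM [70.1, 74.2] and 89.8 CPM [87.5, 92.1] (0.31 [0.26, 0.37]). Mcm3, Mcm5 and Mcm7 lay between, at 0.41, 0.43 and 0.33. The counting intervals of Mcm6 and Mcm2 do not overlap with those of the other 4 subunits, but whether the subunits differ beyond the spread between mice cannot be tested with 1 library per day. In the CD4 gate Mcm6 went from 125 to 176 CPM (0.49 [0.34, 0.65]) and Mcm2 from 32.6 to 45.3 CPM (0.46 [0.17, 0.78]), short of the threshold, while Mcm4 stood at 67.3 and 64.7 CPM (-0.06 [-0.28, 0.17]). Under median-ratio scaling neither gene reached 1.5-fold in the CD8 gate.

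Genes that activate the helicase had a group ratio of 0.24 [0.21, 0.27] in the CD8 gate, from 244 to 287 CPM. Mcm10, which helps to open the origin, was the highest at 18.1 CPM [17.1, 19.1] and 25.2 CPM [24.0, 26.5] (0.46 [0.37, 0.59]). Gins4, a GINS subunit, was the lowest at 50.1 CPM [48.4, 51.8] and 53.5 CPM [51.8, 55.3] (0.09 [0.03, 0.16]). The other GINS subunits lay at 0.27 to 0.34, Cdc45 at 0.12 and the checkpoint adaptor Clspn at 0.25. CD4 cells had group sums of 212 and 199 CPM (-0.09 [-0.22, 0.04]), and Gins3 was under the filter at 11.9 and 7.54 CPM.

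DNA polymerases and primase went from 282 to 348 CPM in the CD8 gate (0.30 [0.27, 0.33]). Pola2, a subunit of polymerase alpha, was highest at 25.98 CPM [24.8, 27.2] and 36.9 CPM [35.4, 38.4] (0.49 [0.41, 0.59]), with Pold1, the catalytic subunit of polymerase delta, at 0.47 beside it. Prim1, the catalytic subunit of primase, was lowest at 54.8 CPM [53.0, 56.6] and 61.6 CPM [59.7, 63.5] (0.17 [0.10, 0.24]). Ratios of Pola1, Prim2, Pole, Pole2, Pold2 and Pold3 ran from 0.22 to 0.36. The CD4 group value was 0.07 [-0.05, 0.18], with Pole2 at 24.5 and 18.1 CPM (-0.42 [-0.85, -0.03]) and Pold1 at 19.8 and 28.0 CPM (0.48 [0.11, 0.89]) at its ends.

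The clamp, its loader and the flap-processing enzymes went from 840 to 1033 CPM in the CD8 gate (0.30 [0.28, 0.31]). Fen1, the flap endonuclease, was highest at 60.3 CPM [58.4, 62.2] and 81.8 CPM [79.6, 84.0] (0.43 [0.38, 0.50]). Rfc1, the large loader subunit, was lowest at 62.0 CPM [60.1, 63.9] and 70.8 CPM [68.8, 72.9] (0.19 [0.13, 0.25]). Pcna stood at 243 and 306 CPM (0.33 [0.30, 0.36]), and DNA ligase Lig1 at 143 and 174 CPM (0.28 [0.24, 0.32]). Loader subunits Rfc2 to Rfc5 spanned 0.19 to 0.38. Fen1 in CD4 cells had 58.3 and 59.7 CPM (0.03 [-0.21, 0.28]).

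Of the single-strand binding subunits, Rpa1 was highest in the CD8 gate at 55.4 CPM [53.6, 57.2] and 81.9 CPM [79.7, 84.1] (0.56 [0.50, 0.63]). Rpa2 was lowest at 159 CPM [156, 162] and 170 CPM [167, 173] (0.10 [0.06, 0.14]), and Rpa3 stood at 0.31. The order was different in the CD4 gate, where Rpa2 went from 91.5 to 125 CPM (0.45 [0.27, 0.63]) and Rpa1 from 50.9 to 63.5 CPM (0.31 [0.07, 0.57]). Whether the change in Rpa2 differs between the gates cannot be tested with 1 library per day. The last group, nucleotides and chromatin, had a ratio of 0.22 [0.21, 0.24] in the CD8 gate. Its ends were the subunits of 1 enzyme, ribonucleotide reductase, which makes deoxyribonucleotides. Rrm1, the large subunit, went from 89.7 to 129 CPM (0.52 [0.48, 0.58]), while Rrm2, the small subunit, stood at 177 CPM [174, 180] and 179 CPM [176, 182] (0.01 [-0.02, 0.05]). The dUTPase gene Dut, Slbp, which binds histone mRNA, and Uhrf1, which reads hemimethylated DNA, had ratios of 0.19, 0.30 and 0.32.

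**Figure D2:**
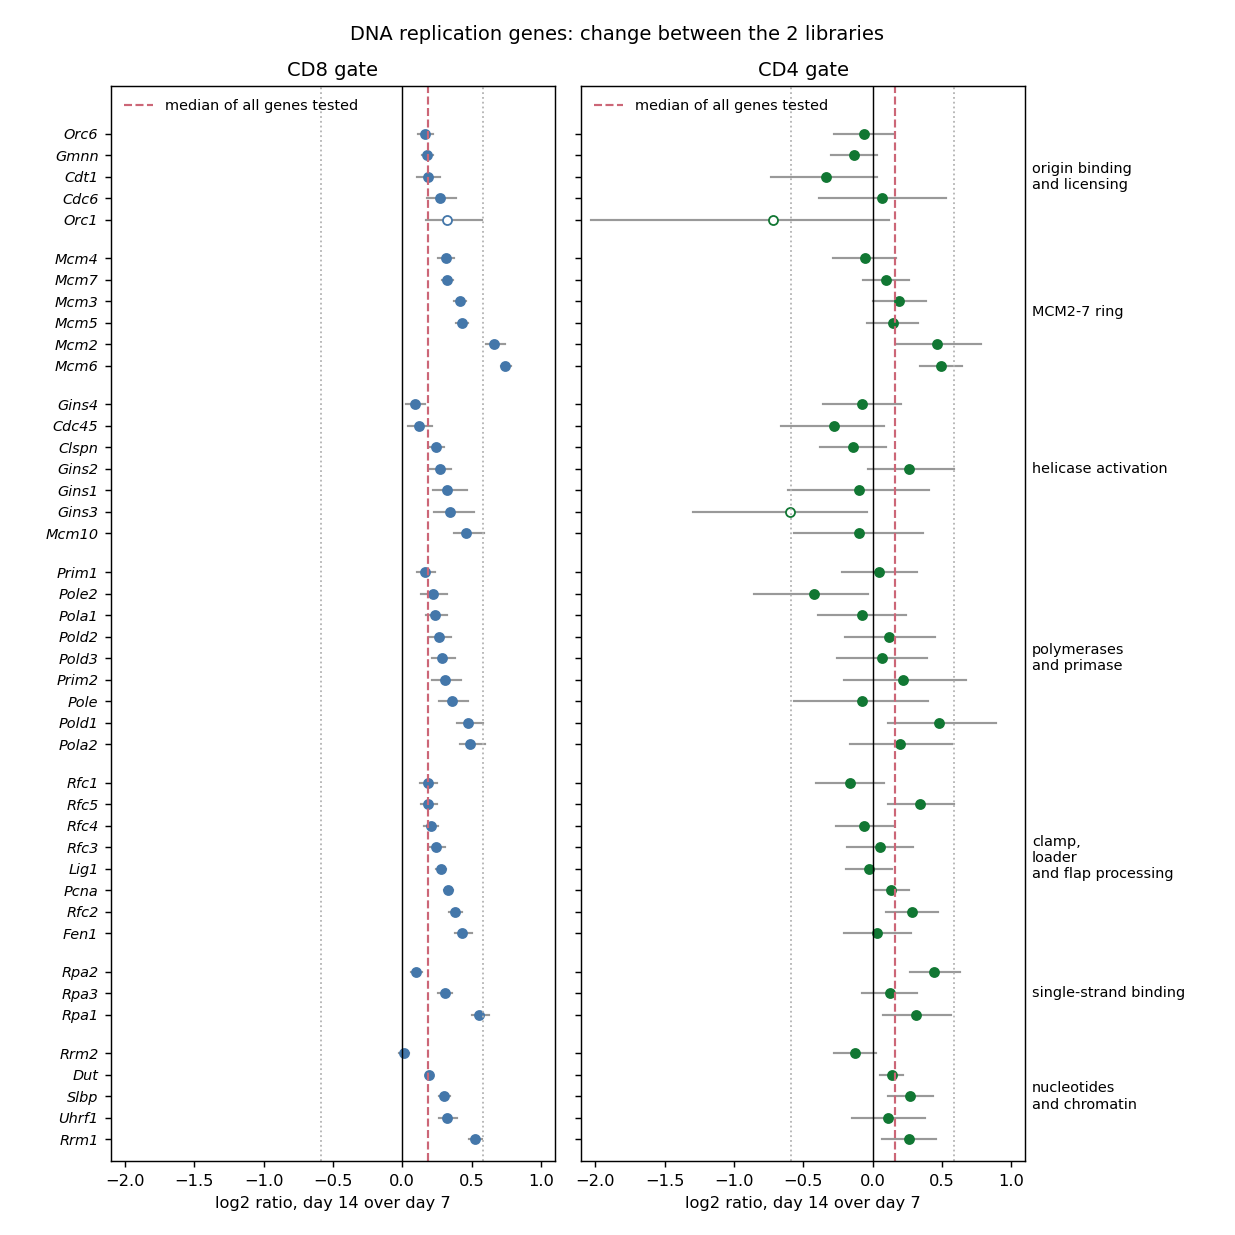
Log2 ratio of day +14 over day +7 (horizontal axis) for each replication gene in the CD8 and CD4 gates, 1 library per day, grouped by role. Points are log2(CPM + 1) ratios, open where the gene is under 10 CPM, gray lines are exact 95% counting intervals of the UMI ratio, dashed lines the median of all genes tested (0.18 and 0.16) and dotted lines 1.5-fold, which Mcm2 and Mcm6 pass in the CD8 gate.

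Within each library the summed level of the replication genes was lower in the CD4 gate than in the CD8 gate. The log2 ratio of CD4 over CD8 was -0.25 [-0.27, -0.22] at day +7 and -0.43 [-0.45, -0.41] at day +14. At day +7 1 of 42 genes was lower by the 1.5-fold rule and none higher, where 2.1% of all genes were lower and 3.75% higher. The gene was Rpa2, at 159 CPM in the CD8 gate and 91.5 CPM in the CD4 gate (-0.79 [-0.94, -0.65]). As 2.38% of the members tested, the day +7 count is near the share of all genes, and nothing is read from it. At day +14 8 of 42 were lower and none higher, against shares of 2.96% and 6.77%. The 8 were Cdt1, Gmnn, Mcm10, Cdc45, Gins3, Clspn, Pole and Pole2, with Pole2 at 32.6 and 18.1 CPM (-0.82 [-1.17, -0.55]) and Gmnn at 179 and 118 CPM (-0.60 [-0.73, -0.49]) at the ends of their range. Gins3, at 13.8 and 7.54 CPM, passed the filter through the CD8 gate alone, so its place among them rests on the filter. None of the 8 is a ring subunit. All 42 ratios were below 0 at day +14 and 40 of 42 at day +7, where 51.1% and 52.9% of the ratios of all genes were above 0. The mitotic genes were also lower in the CD4 gate, by -0.26 [-0.29, -0.23] and -0.40 [-0.43, -0.37], and the median depth of CD4 cells was the lower one on both days. Their part in the result was not tested. With every cell thinned to 4000 UMIs the ratios were -0.30 and -0.49.

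The Foxp3+ gate, meant for regulatory T cells, held few cells, and its values for single genes rest on few UMIs. It held 59 of the 507 Foxp3 UMIs of kept cells at day +7 and 36 of the 216 at day +14. Cells that met no gate held 440 and 180, so the values below do not stand for all cells with Foxp3 transcripts. The regulatory T cell genes Il2ra, Ikzf2 and Ctla4 together stood at 939 and 2302 CPM there and at 129 and 164 CPM in the CD4 gate. The 43 genes had 593 UMIs at day +7 and 210 at day +14, or 2900.5 and 2302 CPM (-0.33 [-0.57, -0.10]). Mitotic genes of the gate were lower as well, at 2137.5 and 1479.9 CPM (-0.53 [-0.82, -0.25]). Of 38 replication genes that passed the filter 3 were lower and none higher, where 2.93% and 5.08% of all genes were. They were Dut, with 74 and 19 UMIs (-0.79 [-1.61, -0.05]), Orc6, with 19 and 2 UMIs (-2.03 [-5.23, -0.03]), and Mcm3, with 26 and 3 UMIs (-1.92 [-4.32, -0.25]). That count was 1 under median-ratio scaling, thinning, strict gates or a 5% mitochondrial limit. The direction did not hold when Cd4 transcripts were not required. That wider gate, added after the data were seen, still left out cells with Cd8a or Cd8b1 transcripts. It held 41 and 39 cells and gave 0.20 [0.07, 0.34]. In it 4 genes were higher and none lower, so the direction in Foxp3+ cells is not settled by these data. The shares of 2.93% and 5.08% belong to the narrower gate without these changes, so the other counts are not set against all genes.

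Cells of the erythroid gate carried high levels of the replication genes on both days. The earlier library gave 4245 CPM [4186, 4304] and the later one 6456 CPM [6068, 6862], the latter from 1032 UMIs in 20 cells (0.60 [0.51, 0.70]). Of 42 genes tested 19 were higher and none lower, where 8.5% and 3.16% of all genes were. Examples were Mcm2, at 72.7 and 188 CPM (1.36 [0.78, 1.91]), Rrm2, at 144 and 344 CPM (1.25 [0.83, 1.65]), and Clspn, at 73.9 and 175 CPM (1.23 [0.63, 1.80]). Rrm2 was thus the lowest of all members by ratio in the CD8 gate and among the highest in this one, and that difference was not tested. Histone genes of the gate stood at 3754 and 3609 CPM (-0.06 [-0.18, 0.06]), unlike those of the T cell gates. Its mitotic genes went from 2377 to 3034 CPM (0.35 [0.22, 0.48]). Top2a, Mki67, Cdk1 and Ccna2 together went from 840 to 1833 CPM (1.13 [0.95, 1.30]). Hemoglobin stood at 300 and 14100 CPM in the gate, with 711 of 1406 UMIs in 2 cells at day +7 and 1330 of 2254 in 2 cells at day +14, and the erythroid list at 3591 and 5987 CPM. At least 10 hemoglobin UMIs were held by 8 of 131 cells at day +7 and 14 of 20 at day +14, at median depths of 36729 and 4638 UMIs. The ratios between days in this gate may thus compare unlike cells, which was not tested. In this gate, 44 of 131 and 6 of 20 cells held at least 3 UMIs of T cell receptor complex genes. Without those cells the sum ratio was 0.85 and 16 genes were higher, and with cells thinned to 4000 UMIs 9 were. The shares of 8.5% and 3.16% were taken without these changes, so these counts are not set against all genes.

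Set against the CD8 gate of the same library, the erythroid gate was higher in the sum by 0.23 [0.21, 0.25] at day +7 and by 0.54 [0.45, 0.63] at day +14. With cells thinned to 4000 UMIs these were 0.58 and 0.94, in a gate whose day +7 median depth of 36729 UMIs was above the 9426 of the CD8 gate. At day +7 8 of 41 genes were higher and 1 lower, where 25% and 20.3% of all genes were. The 8 are 19.5%, below the share of all genes, so nothing is read from that count. By role group the day +7 ratios ran from -0.35 [-0.44, -0.27] for single-strand binding to 0.42 [0.35, 0.49] for licensing. At day +14 15 of 42 were higher and none lower, against 15.2% and 10.1%. The licensing genes Cdc6 and Cdt1 were among those higher on both days, Cdc6 at 20.9 CPM in the CD8 gate and 47.9 CPM in the erythroid gate at day +7 (1.16 [0.99, 1.40]) and at 25.4 and 87.6 CPM at day +14 (1.75 [0.91, 2.54]). Cdt1 was at 32.5 and 56.4 CPM (0.78 [0.61, 0.98]) and at 37.1 and 119 CPM (1.66 [0.95, 2.33]). The mitotic genes, by contrast, were lower in the erythroid gate at day +7 (-0.32 [-0.35, -0.29]) and near equal at day +14 (-0.05 [-0.18, 0.08]).

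To read replication genes against mitotic genes in the same cells, each cell was thinned to 4000 UMIs and T cells were put in ranges of 0, 1 to 2, 3 to 9 and 10 or more mitotic UMIs. Cells under 4000 UMIs were left out, which left 5528 and 5366 CD8 cells and 445 and 497 CD4 cells. The CD8 cells fell into the ranges in like shares, from 0 upward 14.1%, 22.1%, 27.2% and 36.6% at day +7 and 13.6%, 21.5%, 25.01% and 39.8% at day +14. For the earlier library the levels were 1327 CPM [1287, 1368], 1733 CPM [1697, 1771], 3662 CPM [3614, 3711] and 3507 CPM [3467, 3548] over the ranges. For the later one they were 2026 CPM [1975, 2078], 2727 CPM [2679, 2775], 5040 CPM [4981, 5101] and 4233 CPM [4190, 4277]. On both days the level peaked at 3 to 9 mitotic UMIs and was lower in the cells with most mitotic transcripts. Histone levels did not turn down in this way, with 5121 CPM at 3 to 9 and 11787 CPM at 10 or more mitotic UMIs at day +7, and 2505 and 5354 CPM at day +14.

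At every range of mitotic UMIs the CD8 level was higher at day +14, and the gap narrowed from the low to the high ranges. The log2 ratio was 0.61 [0.55, 0.67] at 0 mitotic UMIs, 0.65 [0.61, 0.69] at 1 to 2, 0.46 [0.44, 0.49] at 3 to 9 and 0.27 [0.25, 0.29] at 10 or more, against medians of 0.17 to 0.20 for all genes. In cells with 0 mitotic UMIs, 34 genes passed the filter, 19 of them were higher and none lower, where 16.6% of all genes were higher and 3.95% lower. Of the 19, Clspn (8.63 and 23.9 CPM), Uhrf1 (8.31 and 19.5 CPM) and Pole2 (7.35 and 14.0 CPM) were under 10 CPM at day +7 and passed the filter through day +14, where they are high, so the filter sets part of this count. Mcm2 had 45 and 116 UMIs there, or 14.4 and 39.6 CPM (1.40 [0.95, 1.99]). Mcm6 stood at 78.3 and 160 CPM (1.02 [0.80, 1.26]) and Rrm1 at 12.1 and 30.1 CPM (1.24 [0.74, 1.90]). Gins4, at 30.1 and 27.0 CPM (-0.15 [-0.61, 0.29]), was the one tested gene with a ratio below 0. Neutrophil-gate cells with 0 mitotic UMIs, which should lack these transcripts, gave 109 CPM [44.0, 225] from 16 cells at day +7 and 233 CPM [128, 391] from 15 cells at day +14. The intervals of that background overlap between the days, and its upper bounds of 225 and 391 CPM lie below the CD8 levels of 1327 and 2026 CPM. Histone genes went the other way in the same CD8 cells, with a ratio of -1.30 [-1.41, -1.19] at 0 mitotic UMIs.

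The order over the ranges was another in CD4 cells, a difference between gates that was not tested. From 0 upward the ranges held 27.0%, 28.8%, 18.2% and 26.1% of CD4 cells at day +7. At day +14 they held 23.7%, 33.6%, 15.7% and 27.0%. CD4 cells thus lay less often in the upper ranges than CD8 cells. Their replication gene ratios were 0.19 [0.03, 0.34] at 0 mitotic UMIs, -0.08 [-0.20, 0.05] at 1 to 2, 0.31 [0.20, 0.42] at 3 to 9 and 0.41 [0.32, 0.51] at 10 or more. At 0 mitotic UMIs the CD4 levels were 1288 CPM [1188, 1393] from 120 cells and 1464 CPM [1357, 1577] from 118 cells. In that range the counting intervals of CD4 and CD8 cells overlapped at day +7, and at day +14 the CD4 interval lay below the CD8 one. At 1 to 2 mitotic UMIs the day +7 CD4 level, 1906 CPM [1788.5, 2030], lay above the CD8 one. It was 3593 CPM [3389, 3805] at 3 to 9, an interval that covers the CD8 level. At 10 or more it was lower than in CD8 cells, at 2959 CPM [2805, 3120]. At day +14 the CD4 level was the lower one in every range. With cells thinned to 2000 UMIs the CD4 ratio at 0 mitotic UMIs became -0.17, so its sign depends on that choice.

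**Figure D3:**
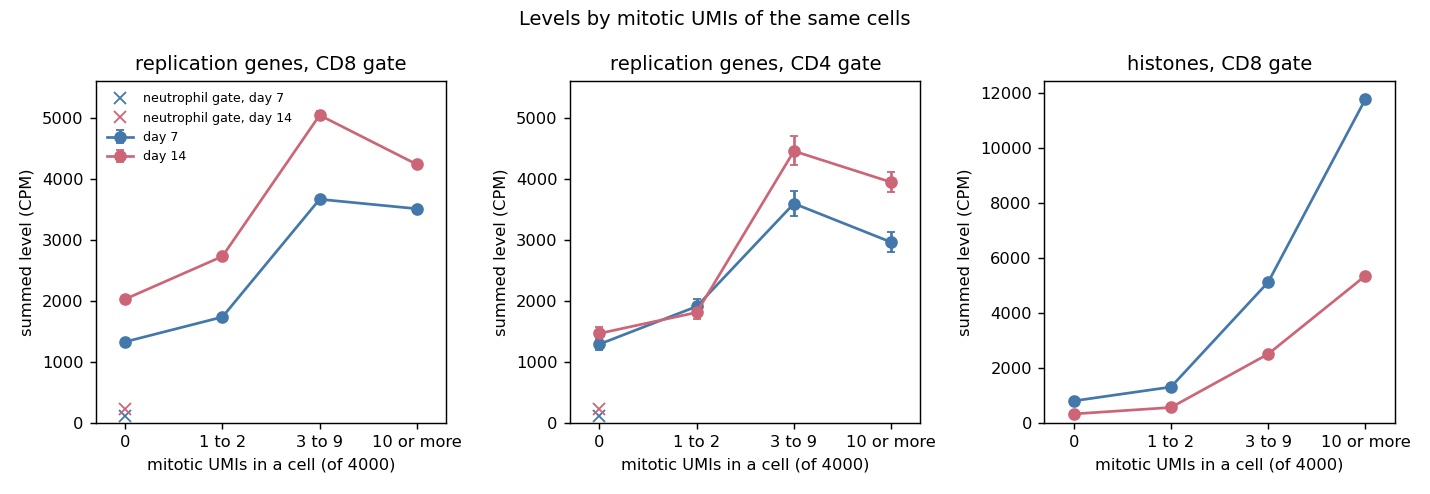
Summed level in CPM (vertical axis) of replication genes in the CD8 and CD4 gates and of histone genes in the CD8 gate, by mitotic UMIs per cell (horizontal axis) in cells thinned to 4000 UMIs, 1 library per day. Points carry exact 95% Poisson intervals, crosses are neutrophil-gate cells with 0 mitotic UMIs, and the CD8 replication gene lines peak at 3662 and 5040 CPM in the range of 3 to 9.

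Single genes differed in where over the ranges their CD8 level was highest. The level was highest at 3 to 9 mitotic UMIs for 27 of 43 genes at day +7 and for 34 at day +14, with 26 of them shared, and highest at 10 or more for 16 and 9, with 8 shared. No gene was highest in the lower ranges. The log2 ratio of 10 or more over 3 to 9 was -1.34 for Cdc6 at day +7 and ran from -0.55 to 0.59 over the other genes, with several close to 0 (Clspn stood at 79.3 and 79.5 CPM). The highest range was the same on both days for 34 of 43 genes. Whether the genes form separate classes was not tested. The 26 genes highest at 3 to 9 on both days came from every role group, and were Orc1, Orc6, Cdc6, Cdt1, the 6 ring subunits, Mcm10, Gins1, Gins2, Gins3, Pola2, Pole2, Pold2, Pcna, Rfc1, Rfc3, Lig1, Rpa1, Rpa2, Dut, Slbp and Uhrf1. Cdc6 fell off most steeply, from 29.6 CPM at 3 to 9 to 11.1 CPM at 10 or more mitotic UMIs at day +7 and from 41.5 to 14.1 CPM at day +14. Mcm2 went from 46.5 to 34.8 CPM and from 89.6 to 48.6 CPM over the same ranges. Highest at 10 or more on both days were Gmnn, Pola1, Prim2, Rfc5, Fen1, Rpa3, Rrm1 and Rrm2. Rrm2 stood at 13.4, 28.5, 143 and 205 CPM from the lowest to the highest range at day +7 and at 21.9, 44.6, 185 and 209 CPM at day +14. Gmnn, the licensing inhibitor, stood at 147 and 160 CPM in the upper ranges at day +7 and 183 and 194 CPM at day +14. Rpa2 was the flattest gene on both days, at 127, 148, 179 and 152 CPM and at 146, 161, 198 and 165 CPM. Across CD4 cells, with 78 to 167 cells per range, 27 of 43 genes had the same highest range on both days.

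**Figure D4:**
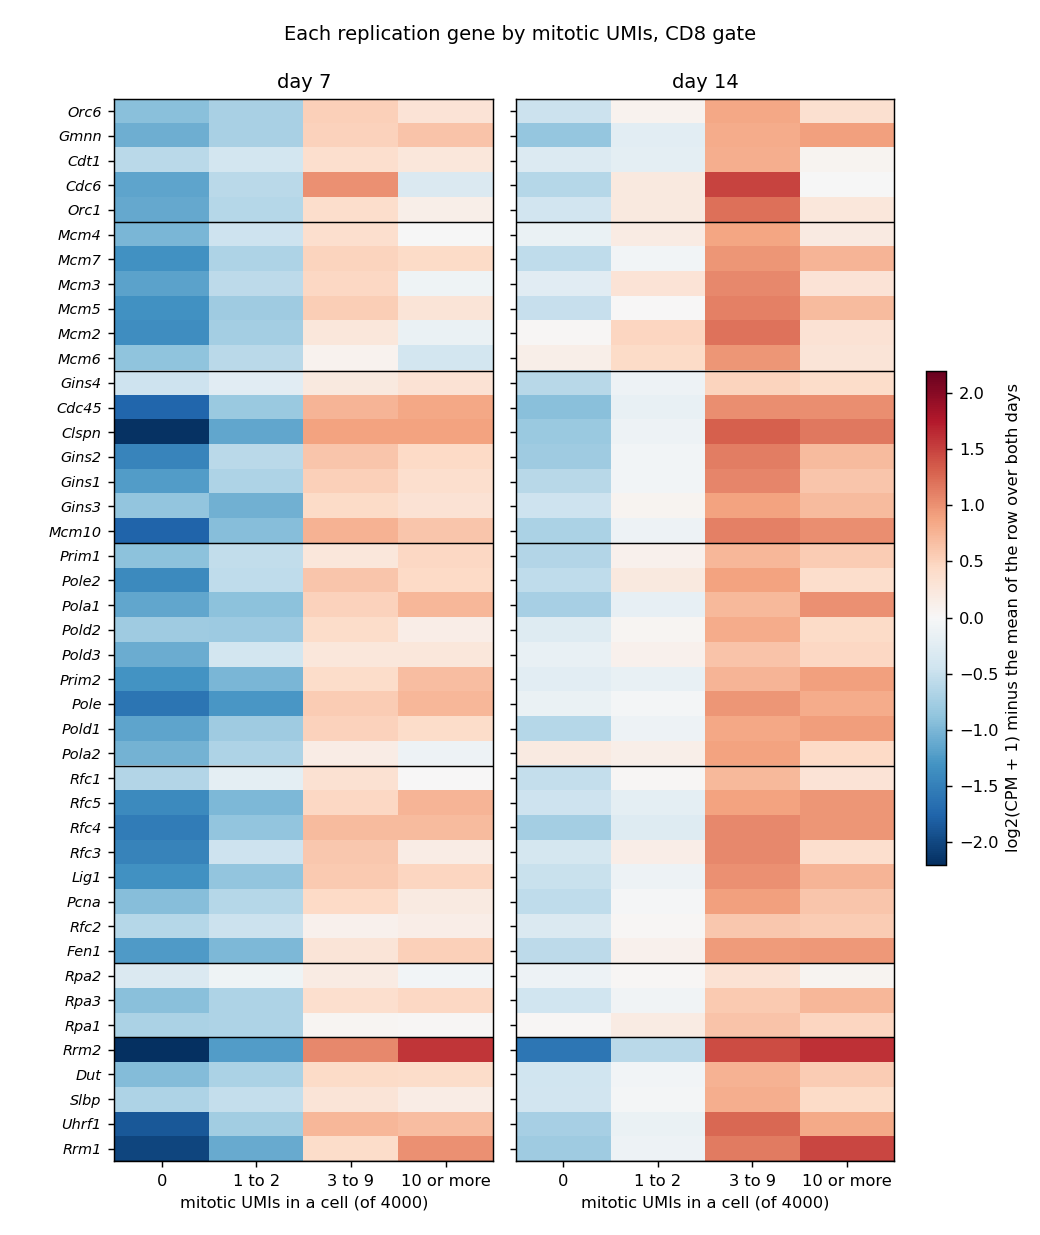
Each row is a replication gene in the CD8 gate and each column a range of mitotic UMIs per cell at day +7 or day +14, with color giving log2(CPM + 1) minus the mean of the row over both days. Cdc6 and the Mcm rows are reddest at 3 to 9 mitotic UMIs and Rrm1 and Rrm2 at 10 or more.

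Per cell, the 43 genes gave a median of 8 UMIs of 4000 in the CD8 gate at day +7, with quartiles of 3 and 19, and a median of 13 at day +14, with quartiles of 6 and 23. On both days the distribution had its peak at 2 to 5 UMIs and a flat shoulder from 12 to 24. Cells with at least 20 replication gene UMIs made up 23.1% of CD8 cells at day +7 and 34.5% at day +14, a range and not a type, since 561 and 671 cells lay at 18 to 22. In the CD4 gate the share was 17.5% and 20.1% and the medians were 5 and 6. Erythroid-gate cells had medians of 16 and 26, from the 118 of 131 and 11 of 20 cells that reached 4000 UMIs, neutrophil-gate cells of 1 and 2. Of CD8 cells 102 had none of the 43 genes at day +7 and 30 at day +14.

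The share of CD8 cells with at least 1 UMI of a given gene, at 4000 UMIs per cell, had a median over the 43 genes of 16.0% and 21.1% on the 2 days, and unthinned of 37.1% and 41.5%. In the neutrophil gate the thinned medians were 6.67% of 30 cells and 6.06% of 33 cells, with median depths of 12565 and 5803 UMIs. This is not a pure background, since 8 and 5 of the 30 cells held 3 to 9 and 10 or more mitotic UMIs at day +7, with 2594 and 3700 CPM of replication genes, and 4 and 7 of the 33 did at day +14. Mcm6 was found in 32.5% [31.3, 33.7] and 50.3% [48.9, 51.6] of CD8 cells, and in 5 of 30 and 2 of 33 neutrophil-gate cells, whose day +7 interval of [5.64, 34.7] covers the CD8 share of that day. Mcm2 was found in 11.4% [10.6, 12.3] and 19.7% [18.6, 20.8], with 3 of 30 and 2 of 33 in the neutrophil gate, so its share is not apart from that background on either day, as the neutrophil-gate intervals of [2.11, 26.5] and [0.74, 20.2] cover the CD8 shares. Pcna was found in 43.3% [41.98, 44.6] and 54.0% [52.6, 55.3] of CD8 cells, and in 5 of 30 and 4 of 33 neutrophil-gate cells. Rrm2 was found in 28.9% [27.7, 30.1] and 33.5% [32.2, 34.8] of CD8 cells, although its summed CPM did not differ beyond counting error. Its neutrophil-gate shares were 7 of 30 and 3 of 33 cells, and no change is read from its share.

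**Figure D5:**
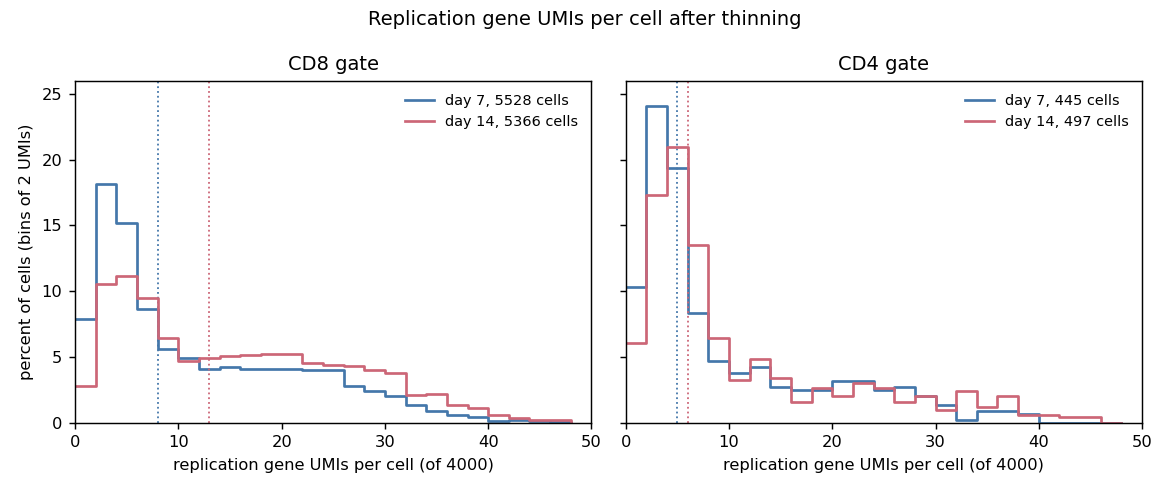
Percent of cells (vertical axis) by the number of replication gene UMIs per cell thinned to 4000 UMIs (horizontal axis, bins of 2), in the CD8 and CD4 gates, with medians dotted. The day +14 CD8 line lies below the day +7 line at 0 to 5 UMIs and above it from 12 on.

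The genes also followed each other from cell to cell. CD8 cells were ordered by the summed UMIs of the other 42 genes, and each gene was compared between the cells at or above the upper quartile and those at or below the lower one, as a description with no test. The 10 CPM filter was not applied here, and several genes were near 0 in the lower cells, such as Mcm10 at 0.17 and 36.7 CPM at day +7, while Orc1 stood at 0.52 and 9.68 CPM. Without the filter each of the 43 genes was at least 1.5-fold higher in the upper cells on both days. Their median log2 ratio was 3.21 at day +7 and 2.98 at day +14. Of other genes that passed the filter 19.4% and 17.3% were higher. Those shares come from cells ordered by all 43 genes, so they were not counted in the same way. Rpa2 was the loosest, at 122 and 197 CPM at day +7 (0.69 [0.56, 0.82]) and 136 and 216 CPM at day +14 (0.66 [0.54, 0.80]). Among genes with at least 10 UMIs in the lower cells, Clspn was the tightest at day +7 (5.20) and Rrm2 at day +14 (4.26). Cdc6 had 0 UMIs in 1441 lower cells and 243 UMIs in 1388 upper cells at day +7, at least 84.1-fold higher against a floor of 3 counts over the lower cells. At day +14 it had 6 and 289 UMIs. Mcm6 went from 86.8 CPM in the lower to 337 CPM in the upper cells at day +14 (1.95 [1.82, 2.10]), and from 40.7 to 229 CPM at day +7 (2.46 [2.30, 2.69]). The 16 genes with an E2F motif had a median of 3.70 (range 1.69 to 5.48) at day +7 and 3.13 (1.88 to 4.72) at day +14. The 19 genes with a window but no motif had 2.84 (0.69 to 5.01) and 2.82 (0.66 to 4.26). These ranges overlap widely, and the difference was not tested. Day +14 over day +7 medians with and without a motif were 0.29 and 0.27 in the CD8 gate. In the CD4 gate they were, in the other order of size, 0.07 and 0.12.

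Genes outside the set were compared between cells at the ends of the same ordering, by all 43 genes. Of the 44 other replication genes 31 of 37 tested were higher in the upper cells at day +7 and 35 of 41 at day +14, and of 40 and 34 tested histone genes 39 and 33 were higher, where 19.4% and 17.3% of all other genes were. Mitotic genes were higher for 22 of 26 and 19 of 26, with medians of 1.83 and 1.079 against 3.69 and 2.89 for the histone genes.

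Between days in the CD8 gate, 3 of 40 other replication genes tested were higher by the 1.5-fold rule and none lower, with a median of 0.25. These are 7.5%, near the 8.32% and 2.84% of all genes, so nothing is read from the count. The 3 were Timeless, a fork protection factor, at 19.3 and 33.3 CPM (0.76 [0.69, 0.89]), Wdhd1, a polymerase alpha adaptor, at 14.4 and 22.9 CPM (0.63 [0.55, 0.79]), and the exonuclease gene Exo1, at 8.57 and 13.7 CPM (0.62 [0.52, 0.83]), which passed the filter through its day +14 level. The lowest were Samhd1, which degrades deoxyribonucleotides, at 157 and 137 CPM (-0.20 [-0.24, -0.16]), Rnaseh2c at 256 and 229 CPM (-0.16 [-0.19, -0.13]) and topoisomerase Top1 at 253 and 227 CPM (-0.15 [-0.19, -0.12]). Timeless in CD4 cells stood at 15.5 and 25.6 CPM. Of the 14 cycle control genes, 1 was higher and none lower in the CD8 gate, the D-type cyclin gene Ccnd2, which acts before S phase, at 59.3 and 109 CPM (0.87 [0.82, 0.94]). Another D-type cyclin gene, Ccnd3, had a ratio below 0, at 136 and 106 CPM (-0.36 [-0.40, -0.31]). E2f1 stood at 18.2 and 24.0 CPM (0.39 [0.30, 0.51]), E2f2 at 57.4 and 54.6 CPM (-0.07 [-0.14, -0.01]) and the cyclin gene Ccne1 at 51.0 and 48.5 CPM (-0.07 [-0.14, -0.002]). The proliferation genes Top2a and Mki67, which rise in S and G2, stood at 346 and 453 CPM (0.39 [0.37, 0.42]) and at 296 and 359 CPM (0.28 [0.25, 0.31]).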

How the data were processed

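The count tables were used as deposited: reads had been run through Cell Ranger 6.1.2 on mm10 by the authors, per the labels, and the values are raw UMI counts per gene and barcode. Barcodes with 500 to 7500 genes and at most 15% mitochondrial UMIs were kept. T cells held at least 3 UMIs of 6 T cell receptor complex genes. CD8 cells also held at least 2 UMIs of Cd8a and Cd8b1 and no Cd4 or Foxp3, CD4 cells at least 1 of Cd4 and no Cd8a, Cd8b1 or Foxp3, and Foxp3+ cells also 1 of Foxp3. Erythroid cells held at least 4 of 10 erythroid genes and were gated first. Scrublet called 0 doublets in either library and thus had not worked, so doublets stayed in, and an alternative dropped the 433 and 518 top-scoring barcodes.

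UMIs were summed per gate and library and scaled to CPM. Ratios of genes are of CPM + 1, restricted to genes averaging 10 CPM or more. The filter was not applied where CD8 cells were ordered by the other 42 genes, or where single genes were compared between mitotic ranges. Past 1.5-fold means on the same side as the exact 95% interval (conditional binomial for ratios, Poisson for levels, Clopper-Pearson for shares). Intervals cover counting error only. Where stated, cells were thinned to 4000 UMIs with a fixed seed, which left out 198 and 969 cells. The 2 libraries are 1 per day, with 87124828 and 84233811 UMIs and medians of 9210 and 8144 per kept cell. The scripts were tested on simulated data.

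Genes with full values are the highest and lowest ratio in the CD8 gate in each role group and any past 1.5-fold in opposite directions in 2 gates, of which there were none. Of other replication genes, the 3 highest and 3 lowest were named, while further genes given values were picked once values had been seen. The 43 genes and the lists were chosen with earlier results of these data known. Alternatives were another scaling, thinning, per-cell means, no low filter, other gates, mitochondrial and doublet limits and other totals. Python 3.11.15, scanpy 1.11.5, numpy 2.4.6, scipy 1.17.1, pandas 2.3.3 and matplotlib 3.10.9 were used.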

Additional observations from a re-analysis of the deposited data

Results flagged for a closer look

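Cells that met none of the gates entered the values of all kept cells but no comparison by gate, and they carried the replication genes as well. The 938 such cells at day +7 gave 3050 CPM over the 43 genes and the 1244 at day +14 gave 3832 CPM, above the 2282 and 1328 CPM of the neutrophil gate. Most of them, 866 and 1155, held at least 3 UMIs of T cell receptor complex genes. They also held 440 of the 507 Foxp3 UMIs of kept cells at day +7 and 180 of the 216 at day +14.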

How the results depend on the processing

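No paired analysis was possible because there is 1 library per time point. Of 118 alternative values, 60 stayed within the counting interval, or for counts of genes within 1.5 times, 55 moved and 3 reversed, and the cause was not tested. Day +14 over day +7 sums, as log2 ratios, were as follows. Median-ratio scaling gave 0.058 in all kept cells, 0.080 in the CD8 gate and 0.020 in the CD4 gate. Thinning to 4000 UMIs gave 0.398 in all kept cells, 0.419 in CD8, 0.227 in CD4, -0.769 in Foxp3+ and 0.786 in erythroid cells. Per-cell means gave 0.307, 0.368, 0.003 and 0.740 in all kept, CD8, CD4 and erythroid cells. Totals without ribosomal, mitochondrial and rRNA-like genes gave 0.233, 0.273 and 0.064 in all kept, CD8 and CD4 cells. Strict gates gave 0.271 in CD8, 0.160 in CD4 and -1.971 in Foxp3+ cells, the last from 6 and 3 cells. Chosen after seeing the data, a Foxp3+ gate without Cd4 reversed to 0.204, and erythroid cells without T cell transcripts gave 0.852.

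Genes past 1.5-fold numbered 0 in all kept and 0 in CD8 cells under median-ratio scaling, against 2 and 2. Thinning gave 5 higher in all kept, 7 in CD8, 3 in CD4 and 9 in erythroid cells and 1 lower in Foxp3+ cells. Per-cell means gave 5 higher in CD8 cells and totals without ribosomal genes 1 higher in all kept cells. In CD4 cells per-cell means, no low filter and totals without ribosomal genes each gave 1 lower. For Foxp3+ cells, median-ratio scaling, strict gates and a 5% mitochondrial limit gave 1 each, against 3, all lower, and without the Cd4 requirement the count reversed to 4 higher and 0 lower. No share of all genes is given for these alternatives, so their counts are not set against all genes.

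CD4 over CD8 was -0.296 at day +7 and -0.488 at day +14 when thinned, -0.214 and -0.379 with loose gates, and -0.351 at day +14 with strict gates. Foxp3+ over CD4 was 0.212 and -0.785 when thinned, 0.165 and -1.966 with strict gates, and -0.068 at day +14 without the Cd4 requirement, against -0.070 and -0.516, so the day +7 sign, whose interval of -0.191 to 0.048 holds 0, is not fixed. Erythroid over CD8 was 0.575 and 0.942 when thinned. At 2000 UMIs per cell, CD8 ratios at 0, 1 to 2 and 3 to 9 mitotic UMIs were 0.521, 0.433 and 0.380, the CD4 ratio at 0 reversed to -0.174 and that at 10 or more was 0.179, and median shares of CD8 cells were 8.69% and 11.2%. With Top2a, Mki67, Cdk1 and Ccna2 among the mitotic genes, the ratio at 0 was 0.531 in CD8 and 0.377 in CD4 cells, and at 10 or more 0.304 in CD4 cells. Few cells limit the Foxp3+ gate and the day +14 erythroid gate.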
